A study of Mus musculus with 2 samples.

Results

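The cathepsins and lysosomal genes described here are 10 named genes of the 28692 listed in both libraries, each found by its symbol as 1 row. They are the cysteine cathepsins Ctsb, Ctsl, Ctss, Ctsz, Ctsc and Ctsh, the aspartic cathepsin Ctsd, the membrane protein Lamp1, and the lipid-handling proteins Lipa and Npc2. Their transcripts were counted in 7 kinds of peritoneal cavity cell, gated by unique molecular identifiers (UMIs, 1 per captured transcript) of marker genes that include none of the 10. All mice were germ-free, that is without microbes, on the C57BL/6 strain, male and aged 10 weeks. The WT library and the Xbp1dIEC library each pooled equal cell numbers of 4 mice, and 8700 cells of each pool were encapsulated. In Xbp1dIEC mice the gene Xbp1, whose product drives the unfolded protein response, is deleted in intestinal epithelial cells, so the cells profiled are not those in which the gene was deleted. The Cre line used is not given in the sources used here.

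Lysosomes are acidic compartments in which cathepsins cut proteins delivered by endocytosis, phagocytosis and autophagy. In cells that present antigen, some cathepsins also trim the invariant chain from MHC class II and cut antigens into peptides. Resident macrophages of the peritoneal cavity take up dying cells and microbes and are rich in lysosomes. Many lysosomal genes carry a CLEAR element in their promoters, a site bound by TFEB, TFE3 and MITF whose core is the E-box CACGTG.

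The files held 6204 barcodes with 56229330 UMIs for WT and 6246 barcodes with 49703442 UMIs for Xbp1dIEC, with median totals of 8323.5 and 7279.5 UMIs. A total of 1153 Xbp1dIEC barcodes had 5% or more mitochondrial UMIs, against 425 in WT, and 58 barcode sequences occurred in both libraries. After filtering, 6058 WT and 6113 Xbp1dIEC cells were kept. Gates held 2764 WT and 2815 Xbp1dIEC large macrophages, 283 and 385 Folr2/Retnla macrophages, 70 and 76 Cd209a cells, 902 and 1251 B-1 cells, 367 and 280 B-2 cells, 290 and 234 T cells, and 26 and 31 NK cells. A further 851 WT cells (14.05%) and 629 Xbp1dIEC cells (10.3%) carried markers of 2 lineages and were left out. Gata6 was at 85.9 and 89.6 UMIs per 1000000 UMIs of the gate (CPM) in WT and Xbp1dIEC large macrophages. Ncr1 was at 430 and 548 CPM in NK cells. Gata6 and Ncr1 were among the genes that set these gates, so their levels describe the gates and do not check them. The Folr2/Retnla gate rested mainly on Retnla, which had a UMI in nearly all of its cells in both libraries, while Folr2 had one in 53.7% and 41.8%.

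The 10 genes lie on 9 chromosomes in GRCm38, the build that the submitters' notes name as mm10, with positions from GENCODE M21. Ctsb (ENSMUSG00000021939) is at chr14:63122462-63145923, Ctsl (ENSMUSG00000021477) at chr13:64359337-64370890, Ctss (ENSMUSG00000038642) at chr3:95526786-95556403 and Ctsz (ENSMUSG00000016256) at chr2:174427493-174439039. Ctsc (ENSMUSG00000030560) is at chr7:88278085-88310888 and Ctsd (ENSMUSG00000007891) at chr7:142375911-142388038, so both are on chromosome 7 but far apart. Ctsh (ENSMUSG00000032359) is at chr9:90054152-90076089, Lamp1 (ENSMUSG00000031447) at chr8:13159161-13175338, Lipa (ENSMUSG00000024781) at chr19:34492318-34527474 and Npc2 (ENSMUSG00000021242) at chr12:84754562-84773152. Exons of Ctsb, Ctsz and Lamp1 overlap those of Fdft1, Nelfcd and Grtp1 on the opposite strand, and whether counting used strand is not given in the sources used here. On the same strand, exons of Ctsd overlap those of Gm49369 and exons of Ctsl those of the pseudogene Gm49230, and Ctsl also overlaps the antisense gene Gm47123. Gm49369, Gm49230 and Gm47123 are not in the deposited gene list, so no UMIs were listed for them, whereas Fdft1, Nelfcd and Grtp1 are in it. How reads in the shared bases were assigned is not given in the sources used here.

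Promoters of 8 of the 10 genes were matched in RefSeq (GRCm38.p6), each from 250 bases before to 50 bases after the start of the gene in RefSeq. The E-box CACGTG, which reads the same on both strands, was present in 3 of the 8, those of Ctsd, Ctsl and Lamp1, and in 7.15% of all 32851 promoters in the table. The longer form TCACGTGA was in 1 of the 8, that of Ctsd, and in 0.974% of all promoters. The following windows are shown 5′ to 3′ on the strand of the gene because they hold these matches, with CACGTG in capitals:
Ctsd, chr7:142387908-142387937, minus strand: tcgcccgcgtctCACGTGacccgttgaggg
Ctsl, chr13:64370739-64370768, minus strand: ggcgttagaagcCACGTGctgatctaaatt
Lamp1, chr8:13159088-13159117, plus strand: agggcaagatatCACGTGgtccagcgccca
Lamp1, chr8:13159121-13159150, plus strand: gatgccgactggCACGTGaccacatcacgt
The match in Ctsd begins at base -98 from the RefSeq start, that in Ctsl at -236, and those shown for Lamp1 at -61 and -28. The RefSeq starts of Ctsd and Ctsl lie inside the GENCODE positions given above, and so do the windows shown for them. Ctsd held 1 more match, at -245, and Lamp1 held 2 more, at -45 and -15. These matches are letters in a window, and no binding was measured.

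The first question was which peritoneal cells carry each gene and at what level. The sum of all 10 genes was highest in the macrophage gates, where Folr2/Retnla macrophages reached 7518 CPM in WT and 6709 CPM in Xbp1dIEC and 6799 and 6056 CPM in large macrophages. It was 5001 and 4440 CPM in Cd209a cells, which carry MHC class II (H2-Ab1 at 15273 and 12842 CPM) and in which a list of 4 dendritic cell genes summed to 82.3 and 72.4 CPM. Lymphocytes had between 1316 CPM (Xbp1dIEC T cells) and 1942 CPM (WT B-2 cells). Of the 10 genes, 7 had their highest mean level over the 2 libraries in Folr2/Retnla macrophages, Ctss and Ctsh in Cd209a cells, and Npc2 in large macrophages. Of the 7, Ctsd was highest in large macrophages in WT, and Ctsc was highest in Cd209a cells in Xbp1dIEC. Only Ctsb and Lipa of the 7 had ranges over the 2 libraries apart from the next gate. The share of all genes highest in that gate was not taken. Levels are CPM of UMIs at transcript 3′ ends, which need no correction for transcript length, and are given below for WT first and Xbp1dIEC second.

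**Figure D1:**
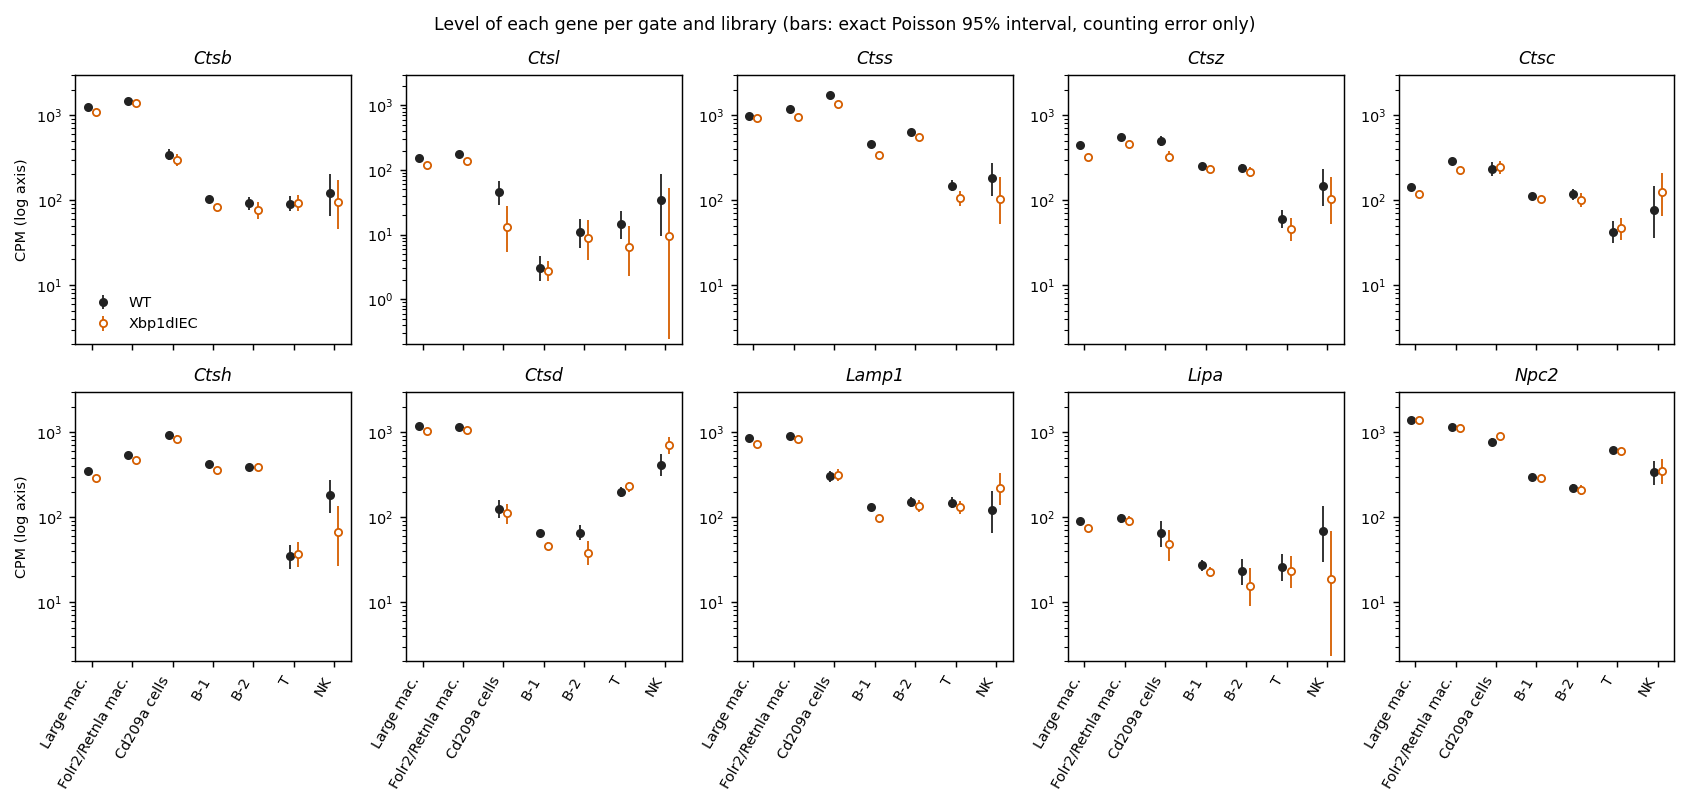
Level of each of the 10 genes (CPM, log axis; the Ctsl axis starts lower than the others) in 7 gates of the WT library (filled) and the Xbp1dIEC library (open), with exact Poisson 95% intervals that cover counting error only. Ctsb, Ctsl, Ctsd and Lamp1 are far higher in both macrophage gates than in Cd209a cells, whereas Ctss and Ctsh are highest in Cd209a cells, at 1702 and 927 CPM in WT.

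Ctsb, a cysteine protease with both endo- and exopeptidase activity, was at 1471 and 1398 CPM in Folr2/Retnla macrophages and 1235 and 1079 CPM in large macrophages. It was at 343 and 295 CPM in Cd209a cells and between 76.1 and 120 CPM in all lymphocyte gates. The ranges of the 2 libraries kept both macrophage gates and Cd209a cells apart in that order, while those of neighbouring lymphocyte gates overlapped. Ctsl, the endopeptidase that cuts invariant chain in the thymic epithelium, was at 175 and 136 CPM in Folr2/Retnla macrophages and 156 and 120 CPM in large macrophages, ranges that overlap. It was the lowest of the 10 genes in all other gates, with 3.07 and 2.78 CPM in B-1 cells. In Cd209a cells it rested on 23 UMIs in WT and 7 in Xbp1dIEC (45.1 and 13.3 CPM).

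Ctss, the protease that trims invariant chain in antigen-presenting cells of bone marrow origin, was at 1702 and 1358 CPM in Cd209a cells. Folr2/Retnla macrophages had 1173 and 947 CPM and large macrophages 972 and 914 CPM, and these 2 gates overlapped. B-2 cells, with 640 and 555 CPM, stood above B-1 cells, with 461 and 340 CPM, and both stood above T cells, with 148 and 105 CPM. Ctsh, an aminopeptidase, had the same gate at its top, with 927 and 831 CPM in Cd209a cells against 545 and 465 CPM in Folr2/Retnla macrophages. Both B cell gates had more Ctsh than large macrophages, with 416 and 361 CPM in B-1 cells and 383 and 392 CPM in B-2 cells against 349 and 292 CPM. B-1 cells were above large macrophages beyond the counting intervals within each library, although the step from B-2 cells to large macrophages was not. T cells had 34.7 and 36.9 CPM of Ctsh, the lowest of the 7 gates.

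Ctsz, a carboxypeptidase, spanned a narrower fold range over the gates than Ctsb, Ctsl, Ctss and Ctsh. It was at 556 and 459 CPM in Folr2/Retnla macrophages, 498 and 324 CPM in Cd209a cells and 446 and 320 CPM in large macrophages, 3 gates whose ranges overlapped from one to the next. B-1 cells had 252 and 230 CPM and B-2 cells 238 and 216 CPM, while T cells had 59.8 and 45.4 CPM. Ctsc, which activates granule serine proteases by removing dipeptides, was at 285 and 226 CPM in Folr2/Retnla macrophages and 231 and 246 CPM in Cd209a cells. Large macrophages had 143 and 118 CPM of it, close to the 117 and 100.5 CPM of B-2 cells and the 111 and 102 CPM of B-1 cells. Ctsc was therefore the gene of the 10 that separated the 2 macrophage gates most, with a log2 ratio of large over Folr2/Retnla macrophages of -0.99 in WT and -0.94 in Xbp1dIEC.

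Ctsd, the main aspartic protease of the lysosome, was at 1172 and 1018 CPM in large macrophages and 1160 and 1049 CPM in Folr2/Retnla macrophages, with overlapping ranges. Next in order were NK cells, at 413 and 700 CPM, and T cells, at 199 and 229 CPM. Cd209a cells had 125 and 110.5 CPM, and B-1 cells 65.0 and 46.2 CPM. Ctsd was thus lower in the antigen-presenting Cd209a and B cells than in T and NK cells, in both libraries. Lamp1, a heavily glycosylated protein of the lysosomal membrane, was at 910 and 837 CPM in Folr2/Retnla and 842 and 731 CPM in large macrophages, and at 302 and 312 CPM in Cd209a cells. The lymphocyte gates had between 96.9 and 217 CPM of Lamp1, with ranges that overlapped.

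Lipa, the acid lipase that hydrolyses cholesteryl esters and triglycerides, was the lowest of the 10 genes in both macrophage gates, at 97.5 and 90.2 CPM in Folr2/Retnla and 89.1 and 75.0 CPM in large macrophages. It was at 64.6 and 47.6 CPM in Cd209a cells and between 15.6 and 27.1 CPM in B-1, B-2 and T cells. Npc2, which passes free cholesterol to the membrane protein Npc1, was the highest of the 10 in large macrophages, at 1395 and 1390 CPM. The order of its levels was the same in both libraries, with 1146 and 1102 CPM in Folr2/Retnla macrophages, 764 and 903 CPM in Cd209a cells, 613 and 603 CPM in T cells, 335 and 350 CPM in NK cells, 298 and 287 CPM in B-1 cells and 220 and 208 CPM in B-2 cells. No neighbouring ranges overlapped, although the counting intervals of NK cells, with 39 and 37 UMIs, included the B-1 level.

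The makeup of the 10 genes' UMIs set Cd209a and B cells apart from macrophages in both libraries. Ctss, Ctsh and Ctsz together made up 62.5% and 56.6% of them in Cd209a cells, 60.4% and 59.2% in B-1 cells and 65.0% and 66.6% in B-2 cells. In large macrophages they made up 26.0% and 25.2%, and Ctsb, Ctsd and Lamp1 together 47.8% and 46.7%. The latter 3 genes made up 15.4% and 16.2% in Cd209a cells. Per UMI of Ctsd there were 13.6 and 12.3 UMIs of Ctss in Cd209a cells and 7.10 and 7.37 in B-1 cells, against 0.830 and 0.897 in large macrophages. T cells had another profile, in which Npc2 alone made up 44.5% and 45.8%, and in NK cells Ctsd made up 24.6% and 39.2%. Ctss, Ctsh and Ctsz together made up 30.3% and 15.3% in NK cells, on few UMIs, most of them from a few cells rich in MHC class II described below. These groups of 3 genes were formed after their levels were seen, so their shares are a description.

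**Figure D2:**
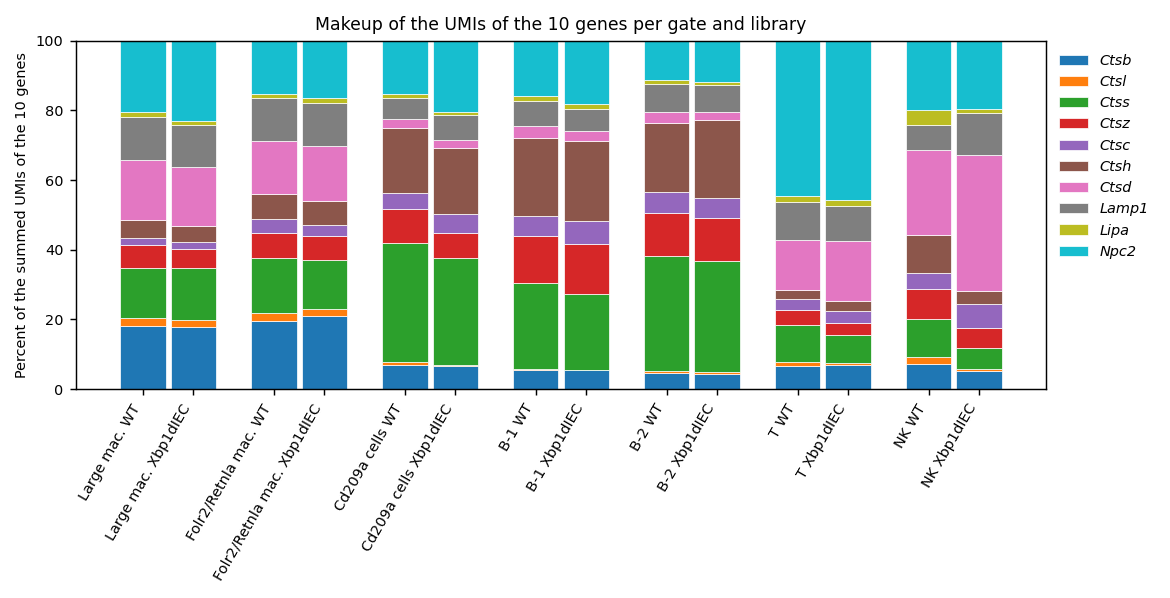
Share of each gene in the summed UMIs of the 10 genes (percent, stacked to 100) per gate and library. Ctss (green) takes 34.0% and Ctsh (brown) 18.5% of the bar of WT Cd209a cells, against 14.3% and 5.13% in WT large macrophages, where Npc2 (cyan), at 20.5%, is the largest part ahead of Ctsb (blue) and Ctsd (pink). Npc2 is also the largest part in T cells, at 44.5% in WT.

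Between gates of the same library, a gene was counted as higher or lower where the log2 ratio of its CPM was 1 or more, or -1 or less, in both libraries. None of the 10 genes differed by that much between large and Folr2/Retnla macrophages, where 1.84% of 6509 genes were higher and 2.3% lower in large macrophages. Over Cd209a cells, large macrophages were higher in 4 of the 10 (Ctsb, Ctsl, Ctsd and Lamp1) and lower in 1 (Ctsh), against 10.6% and 8.18% of 6610 genes. For Ctsd the log2 ratio was 3.21 in WT and 3.19 in Xbp1dIEC, and for Ctsh it was -1.41 and -1.50. Over B-1 cells 7 of the 10 were higher and none lower, against 18% and 11.1% of all genes, and over B-2 cells 6 of the 10, against 17.8% and 14.3%. All 10 were higher than in T cells, where 19.8% of genes were higher and 11.8% lower. Over NK cells 6 were higher and none lower, against 14% and 13.5%. Ctsz, Ctsc and Ctsh were not past that ratio in either B cell gate, and large macrophages had no more Ctsh than B-1 cells, with a log2 ratio of -0.26 in WT and -0.30 in Xbp1dIEC.

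Within gates the measured levels also varied between cells, and how much of this was counting error was not tested. Across WT large macrophages, Npc2 had a median of 1372 CPM per cell, with 753 CPM at the 10th percentile of cells and 2067 CPM at the 90th. Ctss was more spread, with a median of 873 CPM and percentiles of 304 and 1656 CPM. It had a mean of 9.28 UMIs per cell, against 13.3 for Npc2, so its counting error was larger relative to its level. With each cell thinned to 2000 UMIs, a UMI of Npc2 was found in 92.7% and 92.5% of large macrophages, of Ctsb in 88.1% and 84.8%, of Ctsd in 85.5% and 83.5%, and of Ctsz in 53.8% and 42.5%. Unthinned, Ctsz had a UMI in 89.6% and 79.2% of cells, at median depths of 9376 and 7581 UMIs. Ctsl had one in 25.04% and 19.9% of thinned large macrophages, against 0.554% and 0.400% of thinned B-1 cells, which unthinned had one in 2.44% and 2.48% at median depths of 6849.5 and 7557 UMIs. A further 150 WT and 163 Xbp1dIEC macrophages carried markers of both macrophage subsets, with neither subset's list at 2 times the other. In these cells 6 and 7 of the 10 genes had a level between those of the large and Folr2/Retnla gates. The share of all genes lying between was not taken, so the count does not show these cells to be intermediate. For some genes the gates were close, as for Ctsd in WT (1172 CPM in large and 1160 CPM in Folr2/Retnla macrophages). What these cells are was not tested.

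Droplets of lymphocytes can carry free RNA of other cells, and as a measure of it 10 macrophage genes that were not used in the gates were followed, among them Lyz2, C1qa and Fn1. In B-1 cells these were at 1.16% to 2.54% of their large macrophage level in WT (median 1.93%) and 0.328% to 2.01% in Xbp1dIEC (median 1.18%). Ctsl in B-1 cells, at 1.98% and 2.32% of its macrophage level, was at or near that background. Ctsd, at 5.54% and 4.53%, and Ctsb, at 8.35% and 7.77%, were above it, and Npc2 was at 21.3% and 20.6%. Ctsh was at 119% and 123%, and Ctsc at 77.3% and 86.4%, so B-1 cells had more Ctsh than large macrophages and somewhat less Ctsc. All of the 10 genes except Ctsl in WT were above each of the 10 macrophage genes in B-1 cells, and in B-2 cells all 10 were above them in both libraries. In T cells 7 genes in WT and all 10 in Xbp1dIEC were above them. The share of all genes above that level was not taken, so these counts do not set the 10 genes apart from other genes. The highest of the macrophage genes in T cells, Fcgr1, at 10.6% and 4.73%, rested on 4 and 1 UMIs.

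**Figure D3:**
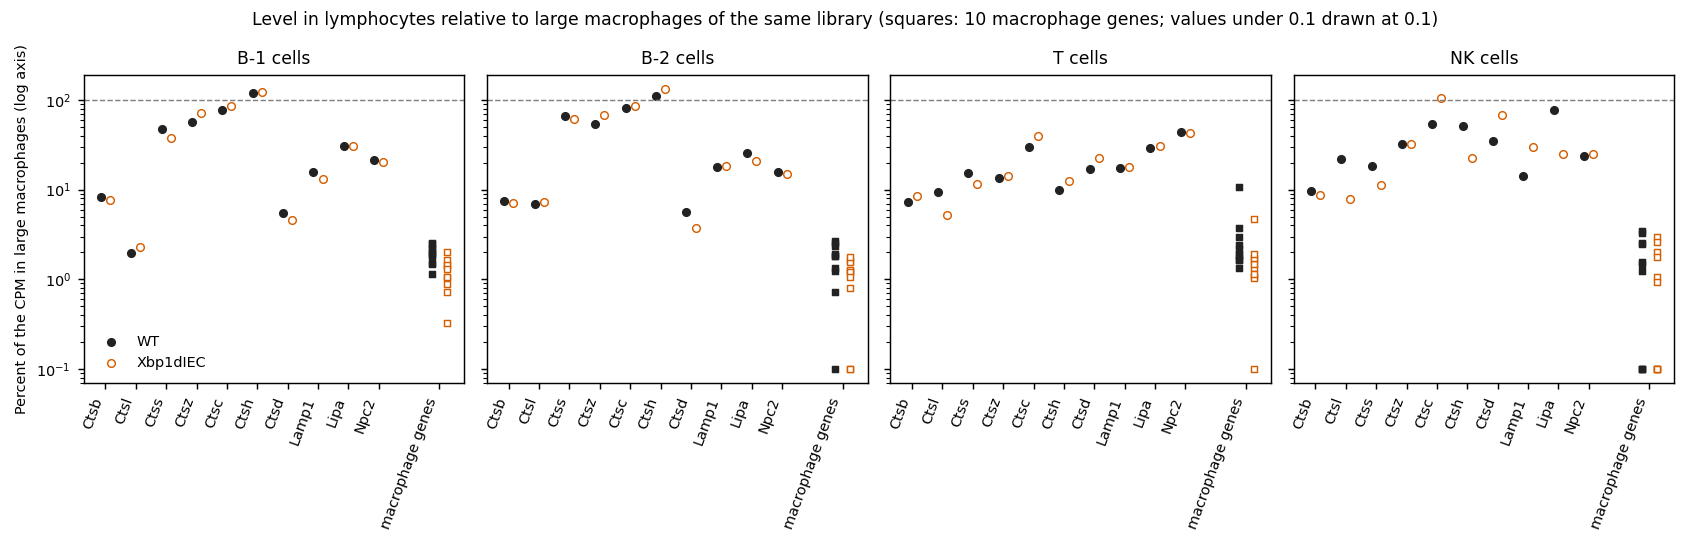
CPM in 4 lymphocyte gates as a percent of the CPM in large macrophages of the same library (log axis, values under 0.1 drawn at 0.1), for the 10 genes (circles) and for 10 macrophage genes (squares), in WT (filled) and Xbp1dIEC (open). Ctsh in B-1 and B-2 cells lies above the dashed line at 100%, and Ctsl in B-1 cells lies at about the height of the upper squares.

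In NK cells a few cells rich in MHC class II held most of the Ctss, Ctsh and Ctsz. Of 26 WT NK cells, 3 had 5 or more UMIs of H2-Ab1, and these 3 held 18 of the 21 Ctss UMIs and 19 of the 21 Ctsh UMIs of the gate. They also held 14 of the 17 Ctsz UMIs. Without these 3 cells Ctss was at 36.7 instead of 180 CPM and Ctsh at 24.5 instead of 180 CPM in WT. Ctsz was at 36.7 instead of 146 CPM. In Xbp1dIEC, without the 1 such cell of 31, Ctss was at 30.8 instead of 104 CPM, and Ctsh had no UMI, which allows up to 30.8 CPM (3 UMIs over the cells left). That cell held 6 of the 11 Ctsz UMIs, and without it Ctsz was at 51.3 instead of 104 CPM. A list of 4 dendritic cell genes summed to 103 and 37.8 CPM in the full NK gates, with 1 and 3 of the 4 at 0, and its part in these levels was not tested. Ctsd did not rest on those cells, as without them WT cells had 576 CPM (exact Poisson interval 423 to 765) and Xbp1dIEC cells 749 CPM (587 to 942). In T cells the same held for Ctsh, of which 5 WT and 4 Xbp1dIEC cells rich in class II held 29 of 40 and 21 of 35 UMIs. Without them T cells had 10.0 and 15.3 CPM of Ctsh, while Npc2 was at 614 and 603 CPM.

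T cells with 3 or more UMIs of the NK gene list, 99 in WT and 94 in Xbp1dIEC, differed from the other T cells in Ctsd and Npc2 in opposite directions. In the former, WT cells had 297 CPM of Ctsd (247 to 354) and Xbp1dIEC cells 313 CPM (262 to 370), and in the latter they had 142 CPM (116 to 172) and 160 CPM (127 to 198). Npc2 was at 437 and 448 CPM in the former and 714 and 731 CPM in the latter. The intervals of the 2 kinds of T cell did not overlap in either library for both genes. Other genes of the 10 differed too, with log2 ratios of former over latter of -0.86 and -0.72 for Ctss and -2.66 and -1.92 for Ctsh. For Lipa they were -1.80 and -0.79, on 4 and 7 UMIs in the former, and for Ctsc 0.61 and 0.40. Ctsz and Lamp1 were lower in the former by less, and Ctsb and Ctsl changed sign between the libraries. Ctsw, a cathepsin of cytotoxic lymphocytes outside the 10, was at 247 and 184 CPM in the former and 25.9 and 23.1 CPM in the latter, and at 361 and 454 CPM in NK cells. It was at 3.92 CPM or less in all macrophage, Cd209a and B cell gates. Ctse, an aspartic protease, stayed at 18.9 CPM or less in all gates, with 8.25 and 5.92 CPM in B-1 cells.

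The second question was whether these levels differed between the genotypes. In large macrophages all 10 genes had a log2 ratio of Xbp1dIEC over WT below 0, from -0.48 for Ctsz to -0.01 for Npc2, although Npc2 was at 0.06 when ratios were centred on the median of all genes and at 0.0069 with cells under 5% mitochondrial UMIs. The median of the 10 was -0.22 (-0.29 to -0.17), and the median of 6466 genes tested was -0.07, with 64.0% of them below 0. Here and below, the bracket after a median holds the counting bounds of its middle gene, averaged where 2 genes are in the middle. Such a bracket is not an interval for the whole list. With 1 library per genotype there is no replicate check and no test, and ratios (with 1 CPM added) have exact binomial 95% intervals for counting error only. Ctsz was at 446 CPM in WT and 320 CPM in Xbp1dIEC, a log2 ratio of -0.48 (-0.52 to -0.44). Ctsl was at 156 and 120 CPM, a log2 ratio of -0.37 (-0.45 to -0.30). These 2 of 10 genes were past a log2 ratio of -0.3, against 13.4% of all genes, and none was past 0.3, against 3.17%. Ctsc (-0.28), Ctsh (-0.25), Lipa (-0.25), Lamp1 (-0.20), Ctsd (-0.20) and Ctsb (-0.19) followed, and Ctss was at -0.09. The 2 libraries also differed in depth and in mitochondrial share, and the median was -0.23 with cells under 5% mitochondrial UMIs and -0.20 with cells of 5000 to 10000 UMIs only.

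In Folr2/Retnla macrophages all 10 genes again had a ratio below 0, from -0.37 for Ctsl to -0.06 for Npc2, although Npc2 was at 0.02 after centring and at 0.0077 in cells of 5000 to 10000 UMIs. The median was -0.19 (-0.28 to -0.10), against -0.07 over 6828 genes, of which 59.3% were below 0. Ctsl (175 and 136 CPM, log2 ratio -0.37), Ctsc (285 and 226 CPM, -0.33) and Ctss (1173 and 947 CPM, -0.31) were past -0.3, as were 21.4% of all genes, and none was past 0.3, against 11.7%. Each of these 3 was short of -0.3 under 1 or more alternatives, and with cells thinned to 2000 UMIs Ctsc was at -0.14 and Ctss at -0.22. Ctss was thus lower in the Xbp1dIEC library by more here than in large macrophages, by a difference that was not tested. Ctsz was at -0.28 (-0.39 to -0.17) in this gate.

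In Cd209a cells the median was -0.18 (-0.72 to 0.35, the bounds of Ctsd, its middle gene), against -0.06 over 3377 genes. Ctsz (498 and 324 CPM, log2 ratio -0.62, interval -0.91 to -0.33) and Ctss (1702 and 1358 CPM, -0.33, interval -0.47 to -0.18) were past -0.3 with intervals below 0, although Ctss was at -0.23 in cells of 5000 to 10000 UMIs. Ctsl (-1.68, interval -3.22 to -0.49, on 23 and 7 UMIs) and Lipa (-0.43, interval -1.25 to 0.35) were also past it, making 4 of 10, against 25.2% of all genes. None was past 0.3, against 14.8%, and Npc2 was higher in Xbp1dIEC, with 764 and 903 CPM and a log2 ratio of 0.24 (0.04 to 0.44). The intervals of Ctsz, Ctss and Ctsl lay below 0 in each of the 3 myeloid gates, although Ctsl in Cd209a cells was at 0.12 with 5 marker UMIs required.

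In B-1 cells 9 genes had enough UMIs and all had a ratio below 0, as did 53.1% of 6334 genes. The median, which took in all 10 genes with Ctsl, was -0.22 (-0.40 to -0.06), against -0.02 over all genes. Ctsd (65.0 and 46.2 CPM, log2 ratio -0.48), Lamp1 (133 and 96.9 CPM, -0.45) and Ctss (461 and 340 CPM, -0.44) were past -0.3, against 10.8% of all genes, and none was past 0.3, against 9.22%. In cells of 5000 to 10000 UMIs Lamp1 was at -0.25. Macrophage RNA was also less abundant in Xbp1dIEC B-1 cells (Lyz2 at 1235 and 901 CPM). When the median percent of the 10 macrophage genes was subtracted, Ctss was at -0.42, Lamp1 at -0.40, Ctsd at -0.30 and Ctsb, before at -0.29, at -0.15.

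In B-2 cells 8 of 9 genes were below 0, as were 54.4% of 5987 genes, with a median of -0.21 (-0.36 to -0.06) against -0.03. Ctsd (65.7 and 38.0 CPM, log2 ratio -0.77, interval -1.36 to -0.24) and Lipa (23.0 and 15.6 CPM, -0.53, interval -1.51 to 0.33) were past -0.3, against 19.5% of all genes. None was past 0.3, against 14.4%, and Ctsh was at 0.03. In T cells 5 of 9 genes were below 0, as were 49.2% of 5109 genes, with a median of -0.02 (-0.19 to 0.14) against 0.01. Ctss (-0.50, interval -0.88 to -0.14) and Ctsz (-0.39, interval -0.98 to 0.17) were past -0.3, against 18% of genes, and none was past 0.3, against 17.9%. In cells of 5000 to 10000 UMIs Ctss was at 0.057 (-0.67 to 0.78). Without the T cells rich in class II, WT cells had 129 CPM of Ctss (109 to 153) and Xbp1dIEC cells 85.5 CPM (67.6 to 107).

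In NK cells 4 genes had enough UMIs, of which Ctsd and Lamp1 were past 0.3 and Ctss past -0.3, against 23.8% and 21.9% of 959 genes. Ctsd was at 413 and 700 CPM, a log2 ratio of 0.76 (0.22 to 1.32), on 48 and 74 UMIs. Without the cells rich in class II its intervals in the 2 libraries overlapped, and in cells of 5000 to 10000 UMIs its log2 ratio was 0.11 (-1.69 to 1.95). Lamp1 had 14 and 23 UMIs and an interval that included 0.

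**Figure D4:**
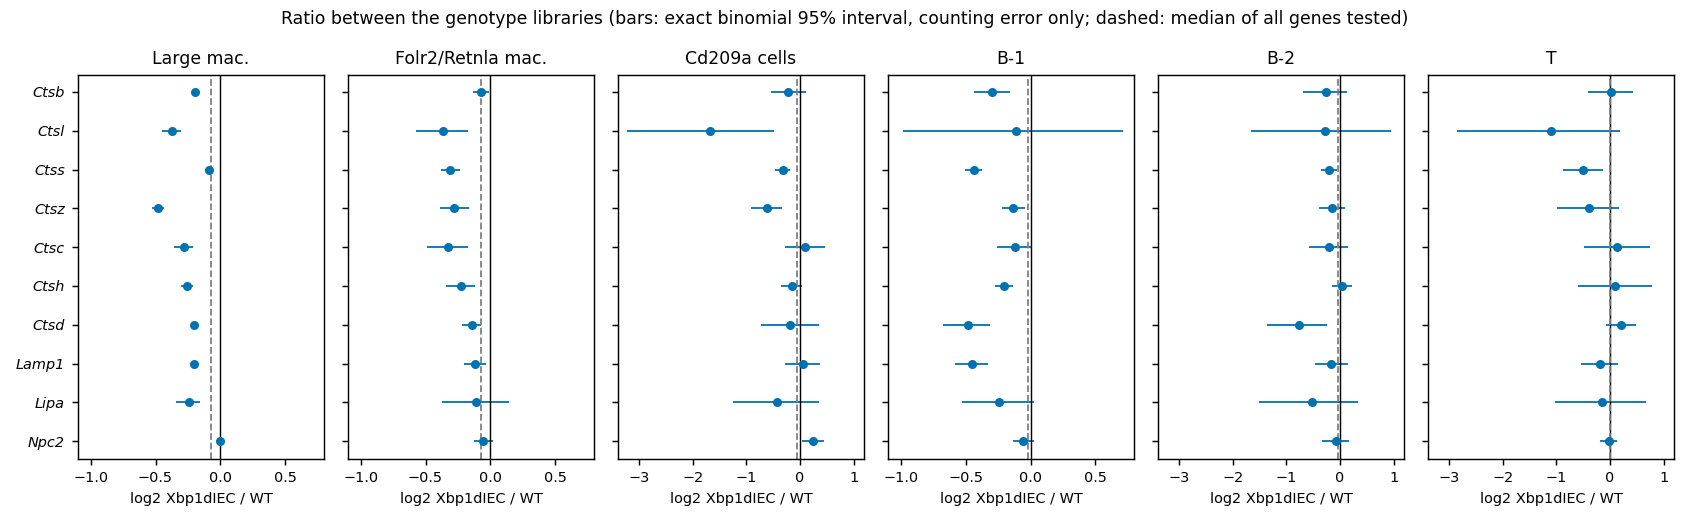
Log2 ratio of Xbp1dIEC over WT (1 CPM added) of each gene in 6 gates, with exact binomial 95% intervals for counting error, and the median of all genes tested (dashed). The horizontal scales differ, with the Cd209a, B-2 and T panels covering a wider range; in large macrophages all points except Npc2 lie left of 0 with their intervals, and Npc2, at -0.01, was at 0.06 when centred on that median.

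The rest of the lysosomal pathway was described with 59 other genes. In large macrophages 46 of them had enough UMIs, and 30 of these had a ratio below 0. A median of -0.12 (-0.20 to -0.04) was taken over 55 of them, those with 10 or more UMIs in each library. This set held genes too low to be among the 46, so it was not set against the median of all genes tested. Over all genes 64.0% had a ratio below 0. Of the 46, 4 were past -0.3 and 1 past 0.3, against 13.4% and 3.17% of all genes. The lowest were Ifi30, a thiol reductase that opens disulfide bonds of antigens (170 and 105 CPM, log2 ratio -0.70), Cd68, a membrane glycoprotein of macrophage lysosomes (336 and 241 CPM, -0.48), Cstb, a cysteine protease inhibitor (180 and 139 CPM, -0.37), and Atp6v0d1, a proton pump subunit (99.0 and 76.9 CPM, -0.36). The highest were Pla2g15, a lysosomal phospholipase (33.9 and 43.9 CPM, 0.37), Cst3, the secreted inhibitor cystatin C (2894 and 3344 CPM, 0.21), Cd63 (73.0 and 80.3 CPM, 0.14) and Ctsf (10.72 and 11.8 CPM, 0.13). After Cst3, the highest levels in WT large macrophages were those of Laptm5 (1960 CPM), Grn (893 CPM) and Psap (730 CPM). In B-1 cells the median over 50 genes with 10 or more UMIs in each library was -0.19 (-0.38 to 0.00). Of the 40 with enough UMIs, 32 were below 0, against 53.1% of all genes there. Of these 40, 9 were past -0.3 and 1 past 0.3, against 10.8% and 9.22% of all genes.

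The genes whose pattern over the 14 values of 7 gates in 2 libraries was most like each of the 10 were taken by Pearson's r of log2 CPM, from 4017 genes. Gates of 1 library share depth and free RNA, so r is a description. Ctsb was most like Plcb1 (r = 0.99), then Lyz2 and Ftl1, and Lamp1 most like Prdx5 (0.99). Ctsh was most like Erp29 (0.99), then Unc93b1 and Plcg2. Dock8 (0.94) and Fth1 were among the 3 most like Ctss, and Rnf13 (0.98) and Tspan31 among the 3 most like Ctsz. Ctsl was most like Degs1 (0.97), Ctsc most like Ehd4 (0.98) and Ctsd most like Tmem37 (0.98). Lipa was most like Ndufb4 (0.97), and Npc2 most like Smpdl3a (0.96). Among the 10 themselves, Ctsb and Lamp1 were most alike (0.98), and Ctsh and Ctsd least (-0.15).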

How the data were processed

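The deposited values are counts (UMIs per gene and barcode), not normalized by the authors. Cell Ranger 2.2.0 and Seurat 2.3.0, with the build mm10, are listed per the submitters' processing notes; annotation and barcode filter: not given in the sources used here. The genes, marker lists and thresholds were chosen with earlier results of these data known. Barcodes with 500 UMIs, 200 genes and under 10% mitochondrial UMIs were kept; scrublet (scanpy 1.11.5, expected rate 5%) removed 140 WT and 113 Xbp1dIEC doublets. Gates needed 3 UMIs of a marker list and under 3 of other lineages; subsets needed 2 times the other subset's list, a rule set from marker UMIs alone. UMIs were summed per gate and library (Python 3.11.15). Genes with 30 UMIs over both libraries and 10 CPM in the higher were counted as tested, and members with 10 UMIs entered medians, whose intervals average the bounds of the middle members. All 10 genes are named; of 59 other lysosomal genes, those with the 4 highest levels in WT large macrophages, those with the 4 highest and 4 lowest ratios there, and Ctsw and Ctse are named. The calculation was tested on simulated data. Alternatives changed gates, doublets, filters, added CPM, scaling, thinning and averaging. Those restricted to 5000 to 10000 UMIs, without class II cells or with macrophage RNA subtracted, and the T cell split, were chosen after seeing the data. 1 gene that the likeness ranking named is not reported here.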

Additional observations from a re-analysis of the deposited data

How the results depend on the processing

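Under the alternatives run, the median log2 ratio of the 10 genes stayed between -0.23 and -0.16 in large macrophages, -0.24 and -0.11 in Folr2/Retnla macrophages, -0.32 and -0.12 in Cd209a cells and -0.30 and -0.15 in B-1 cells. The large macrophage median was -0.16 when centred on the median of all genes. With a log2 ratio of 0.58 as the threshold, 0 of the 10 were past it there, and 1.79% of all genes were past it downward. The B-2 median was -0.034 in cells of 5000 to 10000 UMIs. The NK median, -0.14, was taken over 6 genes with 10 or more UMIs in each library. Among them were Ctsb and Ctsz, which were not among the 4 genes counted as tested there. The NK median ran from -0.49 with cells of 2 lineages kept to 0.31 with cells thinned to 2000 UMIs, where 2 genes were left in it. The T cell median was at -0.27 with 5 marker UMIs, -0.37 with cells of 2 lineages kept and 0.16 in cells of 5000 to 10000 UMIs. Ctsh in T cells was at -1.03 with 2 marker UMIs and -0.82 with 5, against 0.09. Among ratios past 0.3 in size with an interval that excluded 0, signs changed for Ctsl in Cd209a cells with 5 marker UMIs (0.12), and in cells of 5000 to 10000 UMIs for Ctss in T cells (0.057) and Ctsh in NK cells (0.69). Counting every ratio, however small, the sign changed under 1 or more alternatives for 1 of the 10 genes in large macrophages, 1 in Folr2/Retnla macrophages and 1 in B-1 cells, 4 in Cd209a cells, 5 in B-2 cells, 8 in T cells and 6 in NK cells. Ratios past 0.3 in size dropped under it in 1 or more alternatives for 0 of 2 genes in large macrophages, 3 of 3 in Folr2/Retnla macrophages, 3 of 4 in Cd209a cells, 1 of 3 in B-1 cells, 0 of 2 in B-2 cells, and, genes with few UMIs included, 2 of 3 in T cells and 5 of 9 in NK cells. The cause of these changes was not tested. NK cells gave no median in that depth range, as too few UMIs were left. No paired analysis was possible because each genotype has 1 library. Depth limits Ctsl and Lipa in Cd209a cells and lymphocytes and all genes in NK cells.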
